A study of Homo sapiens with 6 samples.

Results

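The translation factors described here were the genes whose products start, extend and end protein synthesis on the cytosolic ribosome. They were chosen by name from a list of 47 symbols. No measured value was part of the rule, but the list was drawn up with earlier results of these data known. All 47 were among the 62703 genes of the count table. Of these, 46 were among the 17901 genes with enough counts to be tested, and EEF1G was not. RNA-seq was performed on poly(A) RNA of 22Rv1 cells, a human prostate cancer line resistant to enzalutamide. All cells were seeded for 24 hours and transfected with Lipofectamine RNAiMAX and 25 pmol of a small interfering RNA pool, the medium was changed after 6 hours, and RNA was taken 3 days after transfection. The pool was non-targeting in siCtrl (n = 3) and directed against MED12, a subunit of the Mediator kinase module, in siMED12 (n = 3). The data come from 1 cell line and 1 pool per group, so effects of the pool other than on MED12 cannot be told apart from the knockdown.

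Translation starts when eIF2 brings the initiator tRNA to the small ribosomal subunit, on which eIF3 serves as a scaffold. The eIF4 factors recruit the capped end of the mRNA. eIF2B recharges eIF2 with GTP after each round, eEF1A and eEF2 then drive the addition of amino acids, and eRF1 with eRF3 release the finished protein. Many of the mRNAs for these factors belong to the growth-related genes of proliferating cells, and part of them start with a pyrimidine tract that places their own translation under mTOR control.

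The libraries held 16136699 to 17012788 counts. MED12 itself had 67.8, 77.7 and 72.6 CPM (counts scaled to the library total adjusted by TMM) after siCtrl against 23.9, 14.97 and 30.1 CPM after siMED12, a log2 fold change of -1.66 (SE 0.23, adjusted p 0.0314, edgeR), and the groups did not overlap. The adjusted p was between 0.0818 and 0.186 without siCtrl replicate 1 or 2 or siMED12 replicate 1 or 2. The luminal epithelial markers KRT8 and KRT18 were between 401 and 934 CPM in all 6 libraries, while CD3E and CDH5 were at 0 and PTPRC, LYZ and PECAM1 did not exceed 0.253 CPM. COL1A1 was at 14.9 to 27.4 CPM in both groups. Mitochondrially encoded genes took 4.43% to 10.1% of the counts, and this share followed the replicate number. Libraries of the same replicate number deviated together, so a second fit held a term for that number, which is called the block. Many single genes are given with the block only, and no factor passed in edgeR without it.

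Without the block, edgeR's quasi-likelihood test called none of the 46 tested factors at a threshold of 0.05 on the adjusted p, in either direction, and their adjusted p-values lay between 0.109 and 0.987. Among all genes 0.413% were called lower and 0.151% higher. At an unadjusted p below 0.05, 13 factors were lower and 0 higher, against 7.93% and 7.65% of all genes. The DESeq2 Wald test called 5 lower, namely EIF2B3, EIF3B, EIF3C, EIF3I and EIF3M, and 0 higher, against 2.75% and 1.85% of all genes. With the block, edgeR called 31 factors lower and 1 higher, EIF4A2, and did not call 14, against 16.2% of all genes lower and 17.1% higher. The DESeq2 Wald test with the block called 27 lower and 1 higher, against 11.5% and 10.0% of all genes. Log2 fold changes were below 0 for 41 of 46 factors, and the median was -0.16 in both fits, beside 0.018 for all genes. In bulk RNA of this kind, fewer cells with these mRNAs and less of them per cell cannot be told apart.

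The changes were small beside the differences between libraries of a group. In 29 of the 46 factors the 3 siCtrl libraries spanned more on the log2 scale than the change itself, as in 13607 of all 17901 genes. EIF5B had the widest siCtrl span, at 0.53, and EIF1AX the narrowest, at 0.072. Every siMED12 library lay below every siCtrl library for 19 factors, whereas 10.9% of all genes had this order, and 0 factors had the opposite order, against 11.2% of all genes. Within the 3 pairs of libraries with the same number, the median of the factors was -0.16, -0.22 and -0.12, beside 0.017, -0.00035 and 0.033 for all genes. The factors lower in all 3 pairs numbered 34, against 27.0% of all genes, and the 2 factors higher in all 3 pairs were EIF4A2 and EIF4G3, against 30.6%. Together the factors took 1.502%, 1.61% and 1.47% of the nuclear-encoded counts in siCtrl and 1.35%, 1.42% and 1.37% in siMED12. With library size as the only scaling, 24 factors were lower and 2 higher in the blocked fit, against 13.5% and 21.3% of all genes.

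**Figure D1:**
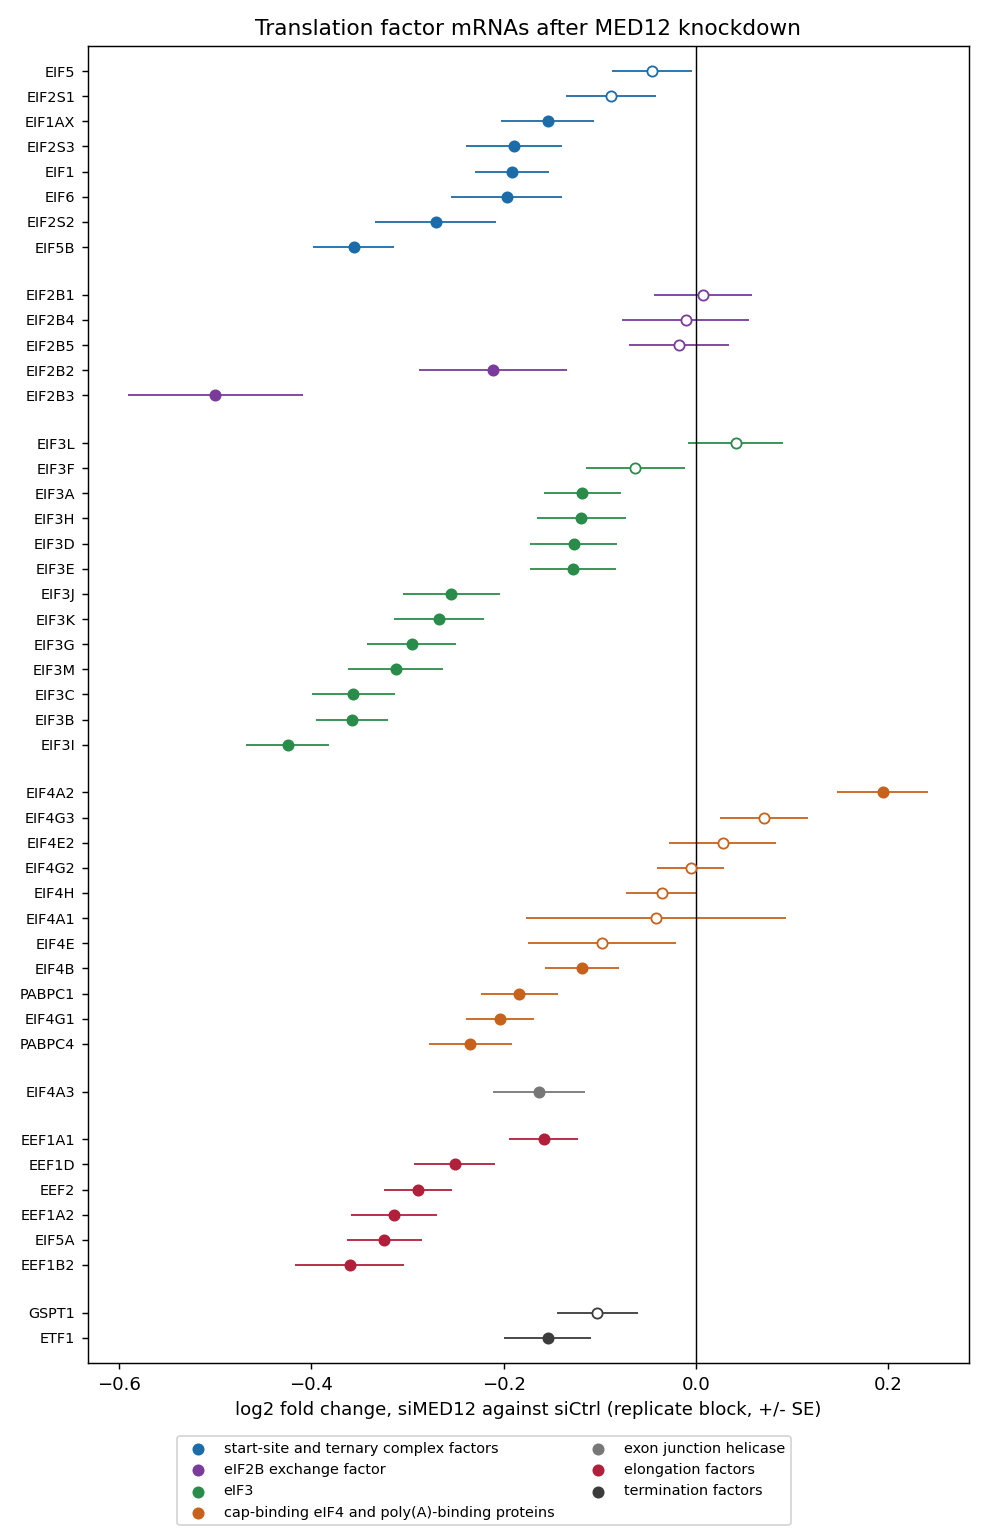
Log2 fold change of siMED12 against siCtrl for the 46 tested translation factors, grouped by class, from the blocked fit. Bars are standard errors, and filled points passed an adjusted p of 0.05. Filled points lie to the left of 0 for 31 factors and to the right for EIF4A2.

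The start-site sequences of the factors are shown because the pyrimidine tract is a known property of part of them that the list did not use. The run marked below is not the same as the known tract. RefSeq promoters (GRCh38.p14, 250 bases before to 50 after the start) were matched for 37 of the 47 factors. The following windows cover 15 bases on either side of the annotated start, 5′ to 3′ on the coding strand. Capitals mark a run of at least 8 letters that are all C or T and that touches the 10 bases on either side of the start.
EEF2 start, chr19:3985449-3985478, minus strand: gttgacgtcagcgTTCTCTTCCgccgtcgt
EEF1A1 start, chr6:73521018-73521047, minus strand: gtcgccgtgaacgTTCTTTTTCgcaacggg
EIF3F start, chr11:7987322-7987351, plus strand: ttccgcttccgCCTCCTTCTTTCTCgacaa
EIF2S3 start, chrX:24054941-24054970, plus strand: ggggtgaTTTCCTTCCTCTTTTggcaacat
EIF3D start, chr22:36529152-36529181, minus strand: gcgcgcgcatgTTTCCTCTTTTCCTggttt
EIF3M start, chr11:32583816-32583845, plus strand: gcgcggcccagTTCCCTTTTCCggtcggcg
EIF3K start, chr19:38619173-38619202, plus strand: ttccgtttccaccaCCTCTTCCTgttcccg
EIF3B start, chr7:2354812-2354841, plus strand: ccccgtcgcacgcacatggctgggctgtag
EIF5A start, chr17:7306984-7307013, plus strand: atgggtgggaacccgaccacactagcgcgc
ETF1 start, chr5:138543222-138543251, minus strand: ggcggaggaagtgatgtcacaggccccatg
EEF2, EEF1A1 and EIF3F are known pyrimidine-tract mRNAs, EIF2S3, EIF3D, EIF3M and EIF3K have such a run without being on the known list used here, and EIF3B, EIF5A and ETF1 have none. A run was present in 13 of the 37 factors (35.1%), against 14.7% of 15843 protein-coding promoters and 14.7% of the 10821 promoters of tested genes. On the known list it was present in 5 of 6 promoters (83.3%), all but EEF1B2, and among the others in 8 of 31 (25.8%). A run counted in this way need not begin the mRNA. In EIF3I, EIF4H, EIF4E, EIF4G3 and EEF1G, the last on the known list, the run ended before the annotated start. In EIF4B, also on that list, the run began 8 bases after the start.

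Calls were given to factors with and without a run. Of the 12 tested factors with a run, 8 were called lower with the block, and the median log2 fold change was -0.14, while among the 24 without a run 14 were lower and the median was -0.16. Of 10 tested factors known to carry the tract, 9 were lower (median -0.14), and of the 36 others 22 were lower and 1 higher (median -0.18). EEF2 and EIF5A, one with and one without the run shown above, had blocked log2 fold changes of -0.29 and -0.32.

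The E-box CACGTG, a site read the same on both strands and bound by basic helix-loop-helix leucine zipper factors, was present in 8 of the 37 promoters (21.6%), against 8.88% of protein-coding promoters and 10.2% of those of tested genes. The site is in capitals in the following 5 windows, from the factors with the site that were called lower with the block. In EIF4A3 the C and T letters before the site run into its first letter, at a distance from the start.
EIF2B3 E-box, chr1:44986759-44986784, minus strand: cagagggacaCACGTGtcgaatgctc
EIF3K E-box, chr19:38619075-38619100, plus strand: aggaagaagtCACGTGgcagccggaa
EIF4B E-box, chr12:53006424-53006449, plus strand: ccgctataatCACGTGattgcctcat
EIF4G1 E-box, chr3:184314452-184314477, plus strand: ctgtggctgtCACGTGacggggcggg
EIF4A3 E-box, chr17:80147234-80147259, minus strand: agttccctttCACGTGacgaagagtg
Among the 8 factors with the site 5 were lower, with a median of -0.14, and among the 28 tested without it 17 were lower, with a median of -0.16. EIF4H, EIF4E and EIF3F carry the site as well, at blocked log2 fold changes of -0.035, -0.097 and -0.063 that did not pass (adjusted p 0.51, 0.363 and 0.379, edgeR), and the sign of EIF4H turned with library size as the only scaling. A match describes the letters of a promoter and says nothing of binding in these cells.

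Among the start-site and ternary complex factors, 6 of 8 were lower with the block and 0 higher, against 16.2% and 17.1% of all genes. Their log2 fold changes ran from -0.36 to -0.046, with a median of -0.19. None passed without the block. These factors choose the start codon and carry the initiator tRNA. EIF5B (ENSG00000158417.11, chromosome 2, 99337371 to 99401326, plus strand, GRCh38), the GTPase that joins the ribosomal subunits, had 282, 307 and 213 CPM after siCtrl against 225, 227 and 172 CPM after siMED12. Each siMED12 library was below its siCtrl partner, but the groups overlapped, with both replicate 3 libraries low. The blocked log2 fold change was -0.36 (SE 0.042, adjusted p 9.00e-09), and without the block it was -0.36 (SE 0.16, adjusted p 0.329).

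EIF1, which guards against starting at a wrong codon, had 368, 399 and 321 CPM after siCtrl against 323, 344 and 285 CPM after siMED12. Its blocked log2 fold change was -0.19 (SE 0.039, adjusted p 0.000142), and the replicate 3 libraries were again the lowest of their groups. EIF2S2, the beta subunit of eIF2, had 61.3, 64.3 and 50.2 CPM after siCtrl against 52.04, 50.1 and 43.3 CPM after siMED12. Its blocked log2 fold change was -0.27 (SE 0.063, adjusted p 0.000762), and siMED12 replicate 1 lay above siCtrl replicate 3. The gamma subunit EIF2S3 changed by -0.19 (SE 0.05, adjusted p 0.0027). The alpha subunit EIF2S1, the site of stress phosphorylation, was at -0.088 (SE 0.047, adjusted p 0.149), so that 2 of 3 eIF2 subunits passed in edgeR with the block. EIF2S1 passed once GC content and length were corrected for (-0.18, adjusted p 0.00124). EIF6, which keeps the large subunit apart, changed by -0.20 (SE 0.058, adjusted p 0.0067) and EIF1AX, a scanning factor, by -0.15 (SE 0.048, adjusted p 0.0111). EIF1AX and EIF6 were the 2 factors of this class whose siMED12 libraries all lay below their siCtrl libraries, as in 10.9% of all genes. EIF1AX lost its call with library size as the only scaling (adjusted p 0.058). EIF5, the GTPase-activating protein of eIF2, was at -0.046 (SE 0.042, adjusted p 0.437) and passed only with the GC and length correction among the blocked alternatives (-0.15, adjusted p 0.00223).

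The eIF2B complex, which recharges eIF2 and is the target of the integrated stress response, was split. EIF2B3 and EIF2B2 were lower with the block, as were 16.2% of all genes, and the other 3 of its 5 subunits did not pass. EIF2B3, the gamma subunit (ENSG00000070785.17, chromosome 1, 44850522 to 44986722, minus strand, GRCh38), had 27.9, 24.7 and 27.6 CPM after siCtrl against 20.7, 18.8 and 17.2 CPM after siMED12. Every siMED12 library lay below every siCtrl library. The log2 fold change was -0.50 (SE 0.13, adjusted p 0.132) without the block and -0.50 (SE 0.091, adjusted p 3.04e-05) with it, in edgeR, the most negative value of the 46 factors. The DESeq2 Wald test gave an adjusted p of 0.029 without the block.

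EIF2B2, the beta subunit, had 38.3, 36.9 and 31.7 CPM after siCtrl against 33.6, 29.1 and 29.5 CPM after siMED12, and its groups overlapped. Its blocked log2 fold change of -0.21 (SE 0.077, adjusted p 0.0301) lost the call without replicate 1 (adjusted p 0.0726), without replicate 2 (0.17), with library size only (0.0799) and in the DESeq2 Wald test with the block (0.128). EIF2B5, the catalytic epsilon subunit, had 84.3, 86.8 and 94.97 CPM after siCtrl against 83.8, 83.6 and 95.7 CPM after siMED12. The pairs of EIF2B5 were at -0.0094, -0.054 and 0.011 on the log2 scale. EIF2B1 and EIF2B4 had blocked log2 fold changes of 0.0078 and -0.01. The signs of EIF2B1, EIF2B4 and EIF2B5 turned with the scaling or with a library left out, so no direction is given for them.

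**Figure D2:**
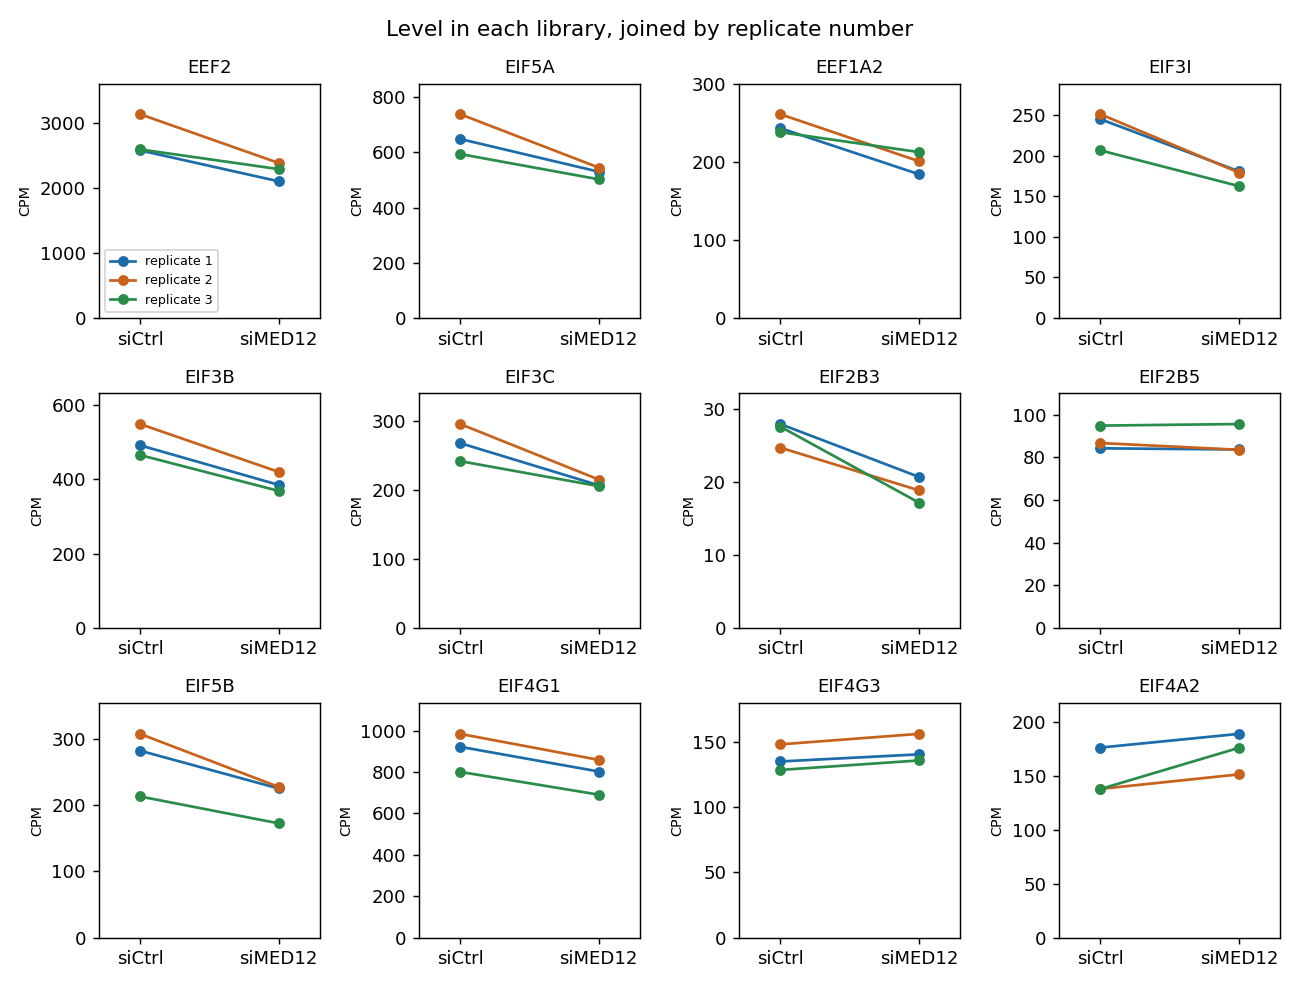
CPM of 12 translation factors in each library, on axes that start at 0, with lines joining the siCtrl and siMED12 libraries of the same replicate number. EEF2, EIF5A, EEF1A2, EIF3I, EIF3B, EIF3C, EIF2B3, EIF5B and EIF4G1 fall along all 3 lines, the lines of EIF2B5 run between 83.6 and 95.7 CPM, and EIF4A2 and EIF4G3 rise along all 3.

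The eIF3 complex is the largest initiation factor and the scaffold of the small subunit. It was lower in 11 of 13 subunits with the block and higher in 0, against 16.2% and 17.1% of all genes. Its log2 fold changes ran from -0.42 to 0.042, with a median of -0.25. The subunits spanned a range of sizes, from EIF3I, EIF3B, EIF3C and EIF3M at or below -0.31 to EIF3F and EIF3L, which did not pass. In 8 of 13 every siMED12 library lay below every siCtrl library, as in 10.9% of all genes. Without the block none passed in edgeR, 6 were lower at an unadjusted p below 0.05, and the 4 subunits at or below -0.31 passed in the DESeq2 Wald test.

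EIF3I (ENSG00000084623.12, chromosome 1, 32221077 to 32245397, plus strand, GRCh38), a WD-repeat subunit, had 245, 251 and 207 CPM after siCtrl against 181, 179 and 163 CPM after siMED12. The groups did not overlap, and the pairs changed by -0.44, -0.49 and -0.35. The log2 fold change was -0.43 (SE 0.10, adjusted p 0.109) without the block and -0.42 (SE 0.043, adjusted p 2.77e-10) with it. EIF3B, the subunit that anchors EIF3I and EIF3G, had 491, 549 and 465 CPM after siCtrl against 385, 419.9 and 369 CPM after siMED12. Its siMED12 libraries were all below its siCtrl libraries, and the blocked log2 fold change was -0.36 (SE 0.038, adjusted p 6.56e-10). EIF3C, a core subunit, had 268, 296 and 242 CPM after siCtrl against 207, 215 and 206 CPM after siMED12, and again the groups did not overlap. The blocked log2 fold change of EIF3C was -0.36 (SE 0.044, adjusted p 1.93e-08), and with the counts of EIF3CL, a near-identical gene, it was -0.30 (SE 0.04, adjusted p 7.62e-08).

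EIF3G, the third of the subunits anchored around EIF3B, changed by -0.30 (SE 0.046, adjusted p 2.21e-06) with the block. EIF3M changed by -0.31 (SE 0.05, adjusted p 3.59e-06), EIF3K by -0.27 (SE 0.047, adjusted p 1.55e-05) and EIF3J, a loosely bound subunit, by -0.25 (SE 0.05, adjusted p 0.000101). The largest subunit, EIF3A, changed by -0.12 (SE 0.04, adjusted p 0.019). EIF3D, which can bind the cap itself, changed by -0.13 (SE 0.045, adjusted p 0.0262), EIF3E by -0.13 (SE 0.045, adjusted p 0.0242) and EIF3H by -0.12 (SE 0.047, adjusted p 0.0452). Among the subunits of eIF3, these 4 lost their calls under an alternative. EIF3D, EIF3E and EIF3H lost theirs without replicate 1, EIF3A, EIF3E and EIF3H without replicate 2 and EIF3H without replicate 3 (adjusted p-values 0.0601 to 0.106), and all 4 with library size as the only scaling (0.0969 to 0.184). In the DESeq2 Wald test with the block EIF3D, EIF3E and EIF3H lost theirs as well (adjusted p 0.0634, 0.0591 and 0.103).

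EIF3L and EIF3F were the subunits not called. EIF3L was at -0.03, -0.039 and 0.19 in the pairs, with siMED12 replicate 3 above its partner, and its sign turned without replicate 3. Of its canonical transcript, 58.5% lies in exons of another gene on the same strand. EIF3F was at -0.063 (SE 0.052, adjusted p 0.379) and passed with the GC and length correction (-0.18, adjusted p 0.00259).

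The cap-binding eIF4 factors and the poly(A)-binding proteins had calls in both directions. Of 11, 4 were lower with the block and 1 higher, against 16.2% and 17.1% of all genes. The other 6 did not pass, and the median of the 11 was -0.042. The 4 lower were EIF4G1, PABPC4, PABPC1 and EIF4B. EIF4G1 (ENSG00000114867.22, chromosome 3, 184314495 to 184335358, plus strand, GRCh38), the scaffold that links the cap-binding protein to eIF3, had 922, 984 and 801 CPM after siCtrl against 802, 859 and 691 CPM after siMED12. The pairs changed by -0.20, -0.20 and -0.21, nearly the same in each, while the groups overlapped, with replicate 3 low in both. The log2 fold change was -0.20 (SE 0.12, adjusted p 0.462) without the block and -0.20 (SE 0.035, adjusted p 1.47e-05) with it.

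EIF4G3, its paralog, had 135, 148 and 128 CPM after siCtrl against 140.3, 156 and 136 CPM after siMED12, higher in each pair. The blocked log2 fold change was 0.071 (SE 0.046, adjusted p 0.249), which did not pass, passed with library size only (0.11, adjusted p 0.0444) and turned to -0.02 with the GC and length correction. The log2 ratio of EIF4G3 to EIF4G1 was -2.71 ± 0.068 in siCtrl and -2.44 ± 0.085 in siMED12 (SD, n = 3), higher by 0.27. The 3 pairs differed by 0.26, 0.27 and 0.29, and the 2 groups did not overlap. An exact two-sided permutation test over the 6 libraries gave p = 0.1, the smallest possible with 3 against 3, and 0.25 after adjustment over 5 ratios. EIF4G2, a homolog that does not bind the cap-binding protein, had 1023, 1169 and 842 CPM after siCtrl against 1014, 1137 and 864 CPM after siMED12. Its blocked log2 fold change was -0.0052 (SE 0.035, adjusted p 0.931), and its sign turned with library size only. EIF4G2 passed as lower with the GC and length correction (-0.080, adjusted p 0.0476).

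EIF4A2, an RNA helicase, had 177, 138 and 138 CPM after siCtrl against 189, 152 and 176 CPM after siMED12. Each siMED12 library was above its siCtrl partner, although siCtrl replicate 1 was as high as siMED12 replicate 3. The blocked log2 fold change was 0.19 (SE 0.048, adjusted p 0.0013). Without replicate 3 it was 0.12 with an adjusted p of 0.102, so the call rests on that pair, and without the block the adjusted p was 0.546. EIF4A1, the more widely used helicase of the pair, had only 9.82, 8.097 and 11.3 CPM after siCtrl against 8.197, 8.59 and 11.6 CPM after siMED12. All 1758 bases of its canonical transcript lie in exons of other genes on the same strand, and 95.1% of the counts of EIF4A1 and its copy EIF4A1P10 were on the copy. The log2 ratio of EIF4A2 to EIF4A1 was 3.94 ± 0.30 in siCtrl and 4.18 ± 0.31 in siMED12 (SD, n = 3; exact permutation p = 0.5). Levels of EIF4A1 are therefore uncertain, and so is this ratio.

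EIF4E, which holds the cap, had 38.2, 34.8 and 28.5 CPM after siCtrl against 33.03, 32.3 and 29.2 CPM after siMED12. EIF4E2, a homolog tied to repression of translation, had 72.9, 84.95 and 70.7 CPM after siCtrl against 78.7, 81.97 and 72.05 CPM after siMED12. The groups of both genes overlapped. With the block they were at -0.097 (SE 0.077, adjusted p 0.363) and 0.028 (SE 0.056, adjusted p 0.748), with a sign for EIF4E2 that turned without replicate 1. The log2 ratio of EIF4E2 to EIF4E was 1.17 ± 0.21 in siCtrl and 1.296 ± 0.046 in siMED12 (SD, n = 3; exact permutation p = 0.6), and it is uncertain because 64.2% of the counts of EIF4E and its copy were on the copy. EIF4H, a helper of the helicase, was at -0.035 (SE 0.037, adjusted p 0.51), with a sign that turned with library size only. EIF4B, another helper, changed by -0.12 (SE 0.038, adjusted p 0.014) and lost its call without replicate 1 (adjusted p 0.0793) and with library size only (0.0815).

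PABPC1, the main poly(A)-binding protein, had 661, 735 and 647 CPM after siCtrl against 557, 609 and 634 CPM after siMED12. In siMED12 replicate 3 it was close to its partner, and the pairs changed by -0.25, -0.27 and -0.031. The blocked log2 fold change was -0.18 (SE 0.04, adjusted p 0.000362). PABPC4 had 196, 224 and 211 CPM after siCtrl against 176, 184 and 176 CPM after siMED12, and its groups did not overlap. Its blocked log2 fold change was -0.23 (SE 0.043, adjusted p 3.76e-05). The log2 ratio of PABPC4 to PABPC1 was lower by 0.051 (exact permutation p = 0.5), and the 3 pairs did not share a sign. EIF4A3, a helicase of the same family that marks spliced exon junctions instead of starting translation, had 118, 131 and 121 CPM after siCtrl against 106, 118 and 107 CPM after siMED12. It was lower in each pair, with a blocked log2 fold change of -0.16 (SE 0.048, adjusted p 0.0071) and overlapping groups.

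The elongation factors were lower throughout, with 6 of 6 tested called with the block and groups that did not overlap in 5 of 6. Among all genes 16.2% were called lower, and 10.9% had every siMED12 library below every siCtrl library. The median of the elongation factors was -0.30, with a range of -0.36 to -0.16. Without the block 0 passed in edgeR and in the DESeq2 Wald test, and 5 of 6 were lower at an unadjusted p below 0.05. EEF2 (ENSG00000167658.16, chromosome 19, 3976056 to 3985463, minus strand, GRCh38), the translocase, had 2577, 3132 and 2591 CPM after siCtrl against 2101, 2383 and 2288 CPM after siMED12. The groups did not overlap, and the means were 2767 CPM ± 317 in siCtrl and 2257 CPM ± 144 in siMED12 (SD, n = 3). The log2 fold change was -0.29 (SE 0.11, adjusted p 0.254) without the block and -0.29 (SE 0.035, adjusted p 1.98e-08) with it. EIF5A, which resolves stalls at proline runs and carries hypusine, had 648, 738 and 594 CPM after siCtrl against 529.8, 545 and 502 CPM after siMED12. Its siMED12 libraries were all below its siCtrl libraries, and the blocked log2 fold change was -0.32 (SE 0.039, adjusted p 1.29e-08).

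EEF1A1, which delivers aminoacyl-tRNA, had 1264, 1436 and 1384 CPM after siCtrl against 1092, 1242 and 1332 CPM after siMED12. Here the groups overlapped, and replicate 3 changed least. The blocked log2 fold change was -0.16 (SE 0.036, adjusted p 0.000571). EEF1A2, its paralog of muscle and nerve that is also made by some tumors, had 244, 262 and 239 CPM after siCtrl against 185, 201 and 213 CPM after siMED12. No siMED12 library reached a siCtrl library, and the blocked change was -0.31 (SE 0.045, adjusted p 4.64e-07). The log2 ratio of EEF1A2 to EEF1A1 was -2.46 ± 0.081 in siCtrl and -2.61 ± 0.042 in siMED12 (SD, n = 3), lower by 0.16. The pairs differed by -0.19, -0.17 and -0.11, and the exact permutation p was 0.1, the smallest possible, or 0.25 after adjustment over the 5 ratios. Of the counts of EEF1A1 and its copies 79.5% were on the copies, so this ratio is uncertain.

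The exchange factor of eEF1A has the subunits encoded by EEF1B2, EEF1D and EEF1G. EEF1B2 changed by -0.36 (SE 0.057, adjusted p 3.04e-06) and EEF1D by -0.25 (SE 0.042, adjusted p 9.47e-06) with the block, and in both the groups did not overlap. EEF1G was at 0 counts in each of the 6 libraries. Of its canonical transcript, 99.5% lies in exons of another gene on the same strand, which had 2 to 11 counts per library, and a pseudogene copy of EEF1G held 61671 counts over the 6 libraries. The copy had 616, 671 and 697 CPM after siCtrl against 533, 594 and 635 CPM after siMED12. Its blocked log2 fold change was -0.17 (SE 0.037, adjusted p 0.000209). The level of EEF1G was therefore not measured by its own row of counts. In the release factors, ETF1 (eRF1) was lower with the block and GSPT1 (eRF3) did not pass. ETF1 had 167, 186 and 133 CPM after siCtrl against 156, 159 and 120.0 CPM after siMED12. It changed by -0.15 (SE 0.046, adjusted p 0.00736), with overlapping groups. GSPT1 had 226, 249.9 and 191 CPM after siCtrl against 217, 222 and 182 CPM after siMED12. It was lower in each pair, at -0.10 (SE 0.042, adjusted p 0.0594), and passed with DESeq2 size factors (-0.11, adjusted p 0.0289) and with the GC and length correction (-0.22, adjusted p 1.37e-05).

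Many counts lay on near-identical copies of these genes, here genes with at least 10% of their own 50-base stretches in common with a factor. Which gene these reads came from was not tested. Of the 47 factors, 19 had copies with counts, 32 in all. The copies held over 10% of the gene's and copies' counts for 13 factors and over 50% for 6, namely EIF2S2 (61.6%), EIF4A1 (95.1%), EIF4E (64.2%), EEF1A1 (79.5%), EEF1B2 (68.1%) and EEF1G. Adding the copies raised the calls with the block from 31 to 33 lower, through EIF4A1 and EEF1G. EIF4A1 with its copy had 223.2, 224 and 190.5 CPM after siCtrl against 183, 182.8 and 166.9 CPM after siMED12. No siMED12 library then reached a siCtrl library, and the blocked log2 fold change was -0.26 (SE 0.043, adjusted p 6.70e-06), against -0.042 for the gene alone. Without the block its adjusted p was 0.248. With copies added, EEF1A1 was at -0.12 (SE 0.033, adjusted p 0.00267), EEF1B2 at -0.37 (SE 0.043, adjusted p 3.36e-09) and EIF4E at -0.047 (SE 0.052, adjusted p 0.531), each on the same side of the threshold as alone.

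**Figure D3:**
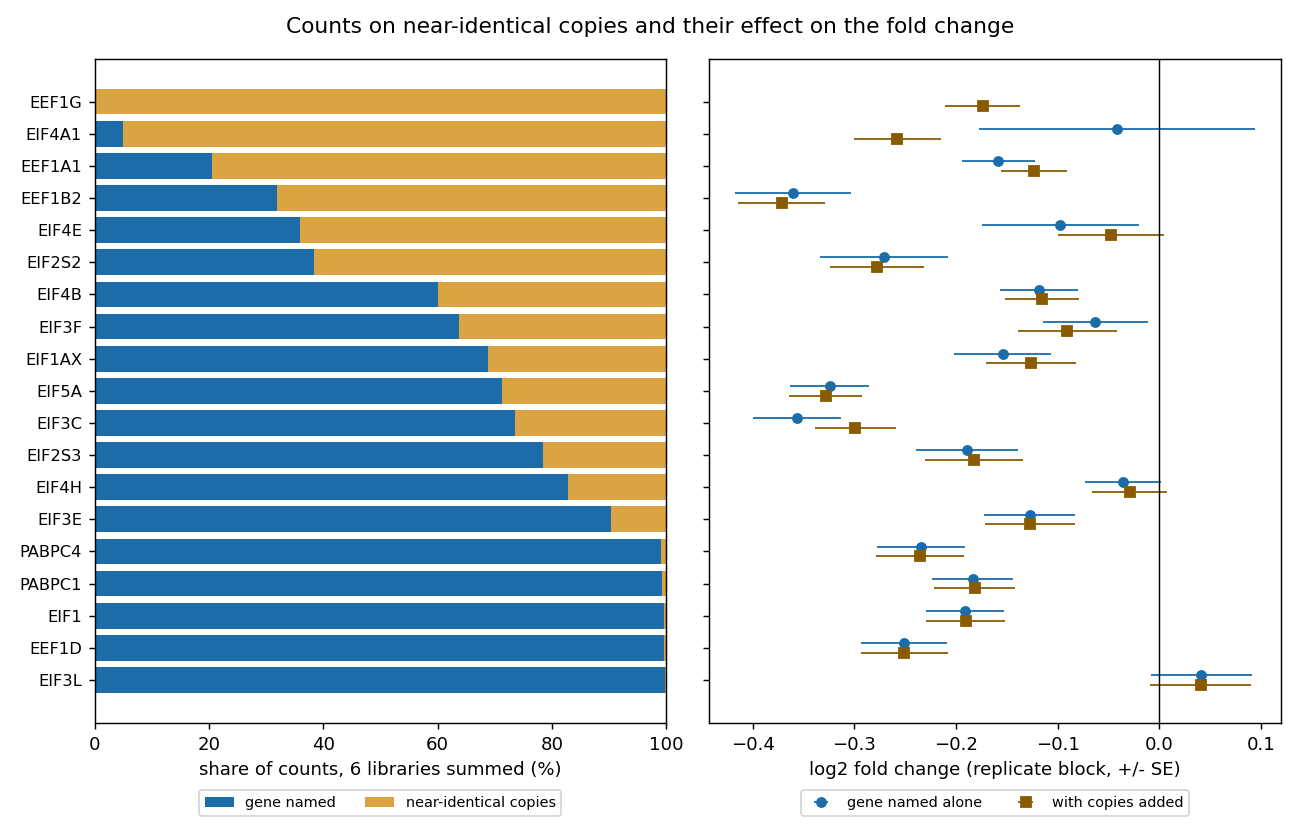
Left, share of the summed counts of 6 libraries on each factor and on its near-identical copies. Right, log2 fold change with the replicate block for the factor alone and with its copies added, with standard errors. EIF4A1 moves from -0.042 to -0.26, and EEF1G has a value only from its copy.

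The counting of overlapping genes was visible in the whole table. Of genes whose exons lie wholly within exons of other genes on the same strand, 40 of 439 (9.11%) had any count, against 334 of 432 (77.3%) of those within genes on the opposite strand and 60.3% of 21974 genes with no overlap. Among the factors, EIF4A1 and EEF1G lie almost wholly in such same-strand overlaps.

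Per length, the factors covered a wide range in the control cells. Taking CPM per kilobase of canonical transcript outside same-strand overlaps, siCtrl levels (mean ± SD, n = 3) were 876 ± 100.3 for EEF2, 522 ± 57.7 for EIF5A, 388 ± 25.1 for EEF1A1, 267 ± 43.1 for EIF4G2 and 243 ± 16.9 for PABPC1. EIF4G2 and PABPC1 did not differ beyond their spread in this order. The lowest levels were those of EIF3F at 16.1 ± 0.918, EIF2B3 at 14.1 ± 0.934, EIF4E at 13.9 ± 2.03 and EIF2B2 at 8.28 ± 0.806, and EIF4E did not differ from EIF3F or EIF2B3 beyond its spread. This level was not computed for EIF4A1 and EEF1G. The order depends on the canonical transcript, and the lengths of other transcripts were not used. EIF3F had a mean of 111 CPM in siCtrl over 6920 bases, and EIF2B3 had 26.7 CPM over 1900 bases. The levels of EEF1A1, EIF4E, EIF3F and EIF5A leave out their copies, which held 79.5%, 64.2%, 36.3% and 28.7% of the summed counts. With its copies EEF1A1 had a mean of 6567 CPM in siCtrl, not divided by length, against 2767 CPM for EEF2. The place of EEF1A1 in this order is therefore uncertain.

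Beside the factors, the other cytosolic parts of the machinery are given for comparison, with no test of a difference between lists, and all lists share the same 6 libraries. Of 84 tested cytosolic ribosomal protein genes, 61 were lower with the block and 0 higher (median -0.18), against 16.2% and 17.1% of all genes. Of 20 cytosolic aminoacyl-tRNA synthetase genes, which charge tRNA, 17 were lower and 0 higher with the block (median -0.31). Without the block edgeR called 0 genes of either list. The median of the 46 factors was -0.16.

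Of 21 genes that regulate the factors, 4 were lower and 5 higher with the block, with a median of 0.084. Both counts were near the shares of all genes, 16.2% lower and 17.1% higher. EIF4EBP1, which binds eIF4E and blocks cap-dependent initiation, had 61.7, 64.6 and 51.4 CPM after siCtrl against 35.1, 31.6 and 27.7 CPM after siMED12. No siMED12 library reached a siCtrl library. Its log2 fold change was -0.91 (SE 0.14, adjusted p 0.041) in edgeR without the block, and -0.91 (SE 0.069, adjusted p 1.13e-13) with it. Without the block the adjusted p rose to between 0.0753 and 0.23 in 5 of the 6 fits that left out a library and to 0.0558 with library size only, at log2 fold changes of -1.02 to -0.83.

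The related repressor EIF4EBP2 moved the other way, by 0.11 (SE 0.042, adjusted p 0.0457) with the block. Without the block its adjusted p was 0.756 in edgeR, and its groups overlapped. LARP1, which binds pyrimidine-tract mRNAs, had 496, 552 and 425 CPM after siCtrl against 404, 410.0 and 355 CPM after siMED12, without overlap, and changed by -0.33 (SE 0.039, adjusted p 1.17e-08). LARP4, which binds poly(A), changed by -0.28 (SE 0.048, adjusted p 1.22e-05), and RPS6KB2, a kinase of ribosomal protein S6, by -0.19 (SE 0.058, adjusted p 0.00837). EEF2K, the kinase that inactivates eEF2, was the regulator with the largest increase, with 104, 98.7 and 122 CPM after siCtrl against 132, 122 and 146 CPM after siMED12. Every siMED12 library was above every siCtrl library, and the blocked change was 0.30 (SE 0.048, adjusted p 3.25e-06). EIF2AK2, the kinase PKR that phosphorylates eIF2, changed by 0.25 (SE 0.052, adjusted p 0.00017), EIF2AK1, the kinase HRI, by 0.14 (SE 0.041, adjusted p 0.00843) and PDCD4, an inhibitor of eIF4A, by 0.20 (SE 0.06, adjusted p 0.00778). The eIF2 kinases EIF2AK3 and EIF2AK4 did not pass, at -0.13 (SE 0.092, adjusted p 0.307) and 0.063 (SE 0.051, adjusted p 0.368) with the block. The adjusted p of EIF2AK2 was 0.0519 with the GC and length correction, and that of PDCD4 rose above 0.05 with that correction, with the DESeq2 Wald test and without replicate 2 or 3 (0.0553 to 0.103). Without the block, of the regulators EIF4EBP1 alone passed.

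The enzymes that modify the factors were lower or did not pass. Of 14, 7 were lower with the block and 0 higher, against 16.2% and 17.1% of all genes. Without the block 1 was lower in edgeR. DPH2, which starts the diphthamide modification of eEF2, had 82.9, 93.9 and 82.6 CPM after siCtrl against 56.4, 59.8 and 58.3 CPM after siMED12. No siMED12 library reached a siCtrl library. The log2 fold change was -0.57 (SE 0.095, adjusted p 0.0495) without the block and -0.57 (SE 0.057, adjusted p 1.82e-10) with it, in edgeR. Without the block the adjusted p was above 0.05 in all 6 fits that left out a library (0.063 to 0.255), with library size only (0.056), with limma-trend (0.0505) and with edgeR's newer method (0.0503). DPH5 and DPH7, of the same pathway, changed by -0.31 (SE 0.083, adjusted p 0.0026) and -0.17 (SE 0.069, adjusted p 0.047). DPH1, DPH3 and DPH6 did not pass with the block, at -0.084, 0.054 and -0.079 (adjusted p 0.342, 0.692 and 0.593). DOHH, which completes hypusine on eIF5A, changed by -0.36 (SE 0.079, adjusted p 0.000395). DHPS, also of the hypusine pathway, did not pass, at -0.22 (SE 0.16, adjusted p 0.313). The methyltransferases EEF2KMT, EEF1AKMT3 and EEF1AKMT4 changed by -0.48 (SE 0.088, adjusted p 3.61e-05), -0.32 (SE 0.1, adjusted p 0.0104) and -0.54 (SE 0.17, adjusted p 0.0148).

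Alternative and rescue factors were lower in 5 of 18 with the block and higher in 0, against 16.2% and 17.1% of all genes. Without the block 0 passed in edgeR. ABCE1, which splits ribosomes after termination, changed by -0.30 (SE 0.047, adjusted p 2.43e-06). EIF2A and EIF2D, which bring initiator tRNA without eIF2, changed by -0.28 (SE 0.052, adjusted p 4.22e-05) and -0.29 (SE 0.06, adjusted p 0.000182), and in both no siMED12 library reached a siCtrl library. DENR, which recycles small subunits, changed by -0.18 (SE 0.046, adjusted p 0.00189) and PELO, a rescue factor of stalled ribosomes, by -0.21 (SE 0.081, adjusted p 0.0414). Of 10 mitochondrial translation factors 4 were lower with the block and 0 higher, beside the same shares of all genes, and 0 passed in edgeR without it. TUFM, the mitochondrial counterpart of eEF1A, had 369.9, 386 and 359 CPM after siCtrl against 287, 317 and 279 CPM after siMED12. Its groups did not overlap, the blocked log2 fold change was -0.34 (SE 0.039, adjusted p 6.82e-09), and the DESeq2 Wald test gave an adjusted p of 0.039 without the block. GFM1, the mitochondrial translocase, changed by -0.16 (SE 0.05, adjusted p 0.0144), MRRF, the recycling factor, by -0.20 (SE 0.058, adjusted p 0.0072) and MTIF2 by -0.22 (SE 0.069, adjusted p 0.0113). MRRF lost its call without replicate 2 (0.0813) and MTIF2 without replicate 1 (0.159) and in the DESeq2 Wald test with the block (0.0641).

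**Figure D4:**
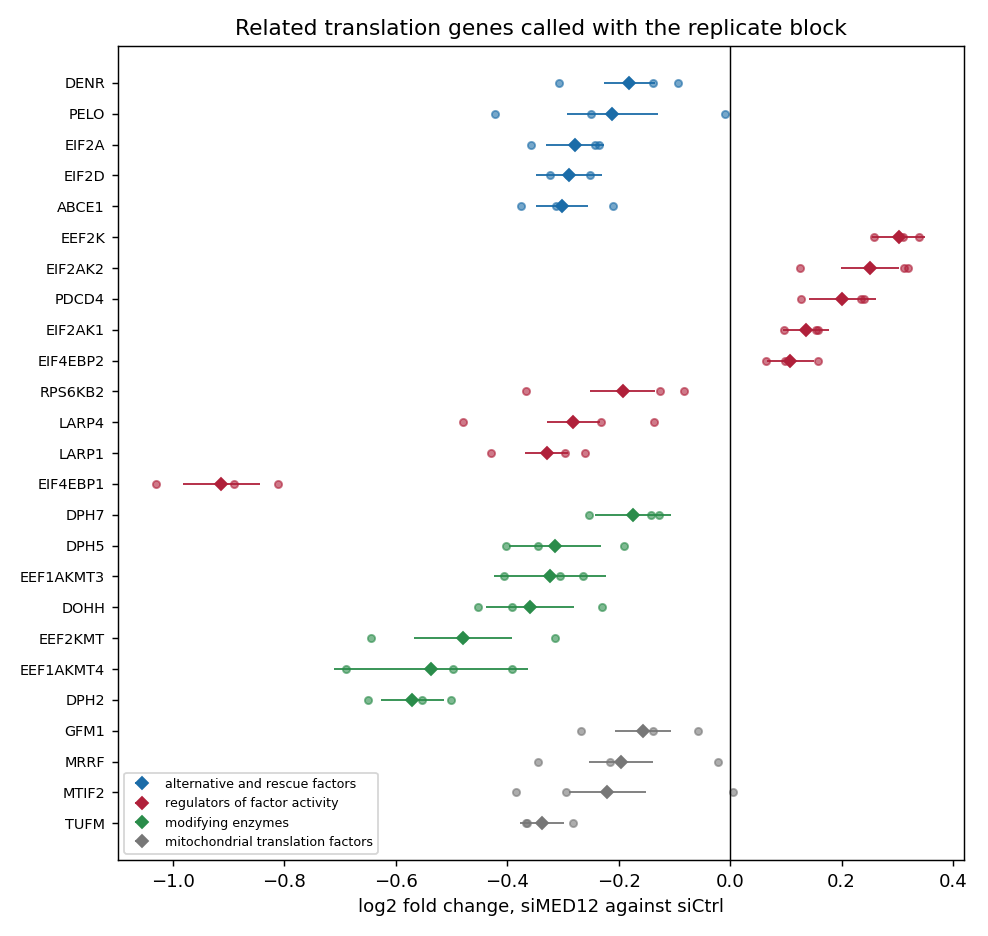
Log2 fold changes of the 25 related translation genes called with the replicate block, as the blocked estimate with its standard error (diamonds) and the 3 pairs of libraries with the same number (small points). The 5 regulators EEF2K, EIF2AK2, PDCD4, EIF2AK1 and EIF4EBP2 lie above 0, and EIF4EBP1 lies farthest below it.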

How the data were processed

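Strand-specific poly(A) RNA-seq of 22Rv1 cells was analysed for 3 siCtrl and 3 siMED12 libraries, grouped and numbered by the labels. The authors aligned and counted reads with Rsubread against GRCh38.p13 and deposited raw read counts per gene and log2 CPM. The Rsubread version and the treatment of reads matching several genes were not given in the sources used here. The deposited log2 CPM agreed within 4.96e-09 with values recomputed from the counts (edgeR filter, TMM, prior count of 2).

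Counts were tested over 17901 genes with edgeR 4.0.16 in R 4.3.3 (quasi-likelihood F-test, two-sided, Benjamini-Hochberg adjustment, threshold 0.05). The main design held treatment only. Deviations of libraries with the same replicate number correlated at 0.532, 0.373 and 0.643, and of different numbers at -0.46 to -0.023, so the numbers were taken to pair the libraries, and a blocked fit is given beside each result. The study states at least 3 biological replicates. Alternatives were DESeq2 1.42.0, limma 3.58.1 (trend), other scalings and filters, libraries left out, and a loess correction for GC content and length (span 0.5). The addition of near-identical copies and edgeR's newer method were chosen after seeing the data. Copies were pseudogenes or like-named genes with at least 10% of the 50-base stretches sampled along their own transcript also found in a factor's transcripts. Annotation came from Gencode 44, promoters from RefSeq. The scripts were tested on simulated data.

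The factors, the related lists and the rule for named genes (per class or list, the 3 smallest blocked p-values, and in the related lists only called genes, in each direction) were chosen with earlier results of these data known, and the choice of further genes came after seeing their values. Results for some genes of the rule and of the marker list are not reported here.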

Additional observations from a re-analysis of the deposited data

How the results depend on the processing

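Without the block, the count of factors lower was 0 in the main fit and moved only with the DESeq2 Wald test, to 5, and with the replicate block, to 31. The count of factors higher moved only with the block, to 1. Over the 6 fits that left out a library both counts were 0, and the median log2 fold change ranged from -0.22 to -0.12 around -0.16. With the block, leaving out a replicate number gave 26 to 30 factors lower, 0 to 1 higher and medians of -0.19 to -0.16. The count higher was 2 with the block and library size only. Correcting the blocked fit for GC content and length gave a median of -0.22, with 36 lower. The cause of these shifts was not tested. Beyond the fit without the block, alternatives were not examined for EIF4EBP2, EIF2AK1, RPS6KB2, DPH5, DPH7, EEF1AKMT3, EEF1AKMT4, DENR, PELO and GFM1.

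The sign turned for factors close to 0. With library size only it turned for EIF2B4 (0.031), EIF2B5 (0.024), EIF4G2 (0.035) and EIF4H (0.0070), and with the block and library size only for EIF2B4 (0.031), EIF2B5 (0.024), EIF4G2 (0.036) and EIF4H (0.0062). EIF2B1 was at -0.00037 with DESeq2 size factors, -0.00042 in the DESeq2 Wald test and -0.0097 with the filter of 1 CPM on the mean. With the block EIF2B1 was at -0.00069 with DESeq2 size factors, -0.00054 in the DESeq2 Wald test and -0.021 with the GC and length correction, which also gave EIF2B4 0.018 and EIF4G3 -0.020. In the 6 fits without a library, the ranges that crossed 0 were -0.20 to 0.014 for EIF2S1, -0.14 to 0.057 for EIF5, -0.015 to 0.011 for EIF2B1, -0.13 to 0.086 for EIF2B4, -0.082 to 0.034 for EIF2B5, -0.0057 to 0.11 for EIF3L, -0.21 to 0.078 for EIF4A1, -0.036 to 0.11 for EIF4E2, -0.13 to 0.11 for EIF4G2, -0.012 to 0.13 for EIF4G3 and -0.11 to 0.024 for EIF4H. In the blocked fits without a replicate number they were -0.033 to 0.033 for EIF2B1, -0.034 to 0.058 for EIF3L, -0.13 to 0.045 for EIF4A1 and -0.031 to 0.043 for EIF4E2.

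Of 644 recomputed values of single factors without the block, 607 kept their sign and their side of the threshold, 5 passed it and 32 changed sign. Adding the block moved 32 of 46 factors past the threshold, with 0 changes of sign. Over the alternatives to the blocked fit the numbers were 416 of 460 kept, 8 that passed, 22 that no longer passed and 14 that changed sign. All 9 recomputed paralog ratios and overlap counts kept theirs. With 3 libraries a group, an exact test cannot go below 0.1.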
